A study of Homo sapiens with 6 samples.

Results

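T24 cells, an established human line from bladder carcinoma, were compared with and without knockdown of circPTK2. The comparison uses 3 of the 6 RNA-seq libraries of the series: T24_C_C, the control (titled si-circPTK2-CON), and 2 knockdown libraries titled si-circPTK2-1 and si-circPTK2-2, here called knockdown 1 and knockdown 2. All 3 are T24 cells with no other agent named in the labels, and the other 3 libraries are the same design in UMUC3, a second bladder cancer line. Members were the libraries whose cell line label reads T24. The titles write si and the design text writes sh, so the kind of reagent is not settled. In T24 the numbers of the titles and of the data columns are swapped.

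Circular RNAs are closed loops made when the end of an exon is joined back to the start of an upstream exon. The loop discussed here comes from PTK2, the gene of focal adhesion kinase, a tyrosine kinase that relays signals from integrins bound to the extracellular matrix. In bladder carcinoma cells, matrix contact, growth factor receptors and amino acid supply are all known to feed into growth and movement. The title of the series joins the circle to PABPC1, which binds poly(A) tails, and SETDB1, which methylates histones, and to epithelial-mesenchymal transition, metastasis and gemcitabine resistance.

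Total counts were 68886057 in the control, 72137247 in knockdown 1 and 72362436 in knockdown 2, of which 58650541 to 60780176 fell in named genes. A gene's count is the sum over its transcripts, and its level is printed in CPM after TMM scaling of the library sizes. Mitochondrially encoded genes held 2.68% of named counts in the control and 3.36% and 3.50% in the knockdown libraries. Keratins KRT8 and KRT19 stood at 1692 and 543 CPM in the control, GATA3 and PPARG at 44.2 and 62.4 CPM, whereas CDH1, UPK1A and UPK1B were at 0 and EPCAM at 2.02 CPM. Of the immune markers, PTPRC was at 0.067, 0 and 0.067 CPM and LYZ at 0, while CD14 was at 5.07, 2.37 and 3.27 CPM and CD68 at 4.21, 5.16 and 5.05 CPM. The endothelial cadherin CDH5 was at 75.5, 64.5 and 67.4 CPM while PECAM1 and VWF stayed under 1 CPM. In bulk RNA, fewer cells of a type and less RNA per cell cannot be told apart.

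Over all genes, few passed the test, and the 2 knockdown libraries lay closer to each other than to the control. Of 20721 genes tested with edgeR's quasi-likelihood test, 19 rose (0.0917%) and 9 fell (0.0434%) at a Benjamini-Hochberg adjusted p of 0.05. These counts depended on the setting: edgeR's older quasi-likelihood method called 2 higher and 0 lower, and leaving out either T24 knockdown library called 0 (2050 and 1971 genes at an unadjusted p under 0.05). The spread comes from the knockdown pairs of both lines, and the lone control is assumed to vary like them. The labels do not say whether the libraries are separate cultures. The p-values therefore measure the spread of these particular samples, and that spread may be technical.

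Among 10966 genes with a mean of at least 5 CPM, the median absolute log2 difference was 0.15 between the knockdown libraries, and 0.28 and 0.29 between each of them and the control. Both knockdown libraries lay above the control for 4322 genes (39.4%) and below it for 4333 (39.5%). They were at least doubled in both for 375 genes (3.42%) and at least halved in both for 261 (2.38%), a description with no test. The knockdown libraries themselves were at least 2-fold apart for 811 genes (7.4%).

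In many genes the counts were divided among the transcripts differently from library to library. For each gene, the composition shift is the total variation distance between the transcript shares of 2 T24 libraries, the largest over the pairs of libraries (0 where the shares are equal, 1 where no transcript is shared), and a gene with 1 transcript or a shift under 0.2 is called composition-stable. Of 6177 such genes with a mean of at least 5 CPM, 150 were doubled in both libraries (2.43%) and 121 halved (1.96%). For 222 of them (3.59%) the knockdown libraries themselves were at least 2-fold apart. Refitting edgeR on the 12800 composition-stable genes tested called 107 higher (0.836%) and 86 lower (0.672%), and 17 of the 28 calls over all genes were among them. Without either knockdown library that fit called 1 gene, JUN. Below, p over stable genes names the adjusted p of this fit, and p over all genes that of the 20721. Stable genes were picked by transcript shares in the same T24 libraries, and the knockdown pair also gives part of the spread. The filter is therefore not independent of the fit. A gene that is not composition-stable could pass only over all genes. Each gene said below to rise or fall among stable genes did not pass over all genes.

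**Figure D1:**
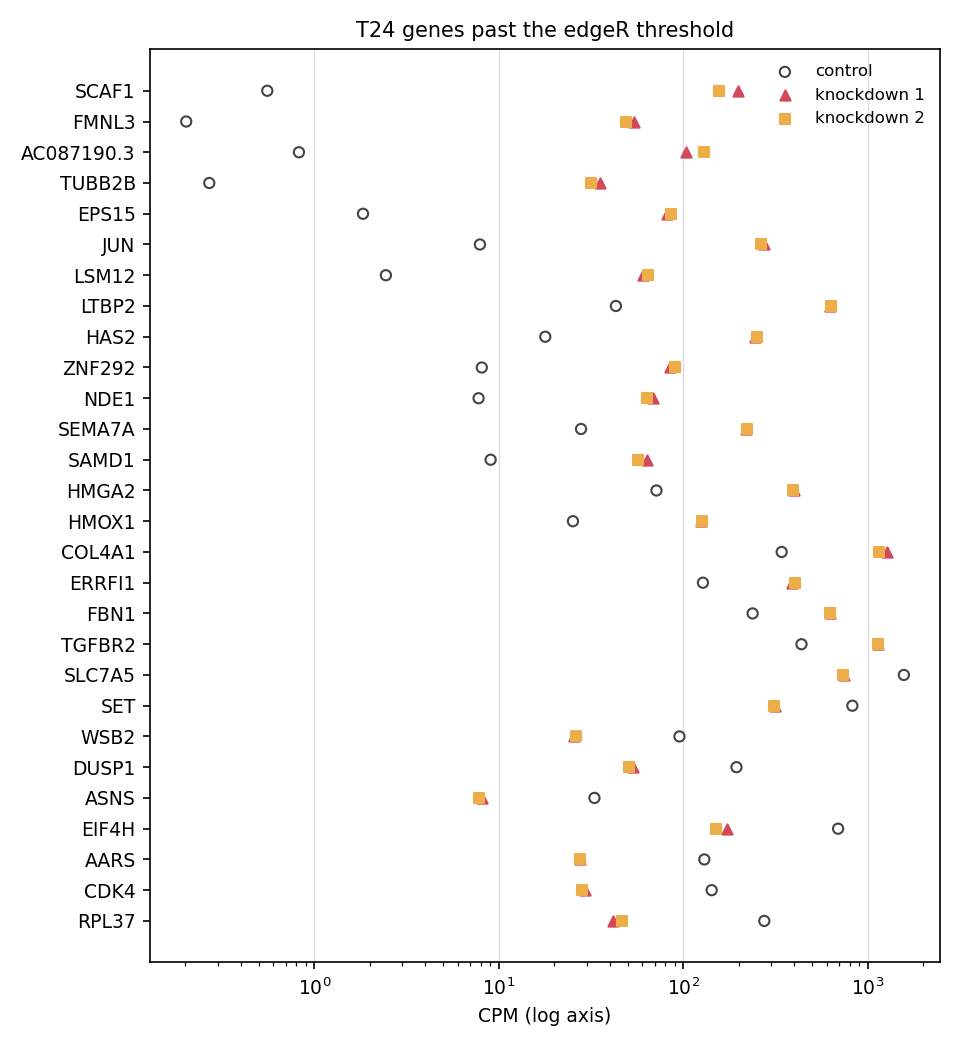
CPM (log axis) of the 28 T24 genes past the edgeR threshold over all genes, one row per gene, with the control as an open circle and the knockdown libraries as a triangle and a square. In each row both knockdown libraries lie on the same side of the control, and JUN goes from 7.90 CPM to 272 and 265 CPM.

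The linear RNAs of the named axis did not pass the test. PTK2 stood at 45.9, 67.2 and 63.1 CPM in the control, knockdown 1 and knockdown 2 (edgeR p over all genes 0.777). PABPC1 stood at 696, 763 and 794 CPM, and SETDB1 at 25.6, 33.4 and 19.9 CPM, with the knockdown libraries on both sides of the control for SETDB1. PTK2 counts may include reads from the circle, so the knockdown of circPTK2 was not checked. Their transcripts moved: the PABPC1 transcript ENST00000522387 went from 22668 counts in the control to 877 and 5121, and ENST00000318607 from 15532 to 41219 and 38222.

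Promoter sequences are shown for 2 sets of genes described below, 2 of amino acid supply (ASNS, CHAC1) with the tRNA synthetase AARS, and JUN with PLAUR of the urokinase and coagulation list and CXCL8 of the chemokine list. The stretches are from RefSeq promoters (GRCh38.p14), 40 bases either side of a motif that a search of the 250 bases before each gene's RefSeq start found on either strand, with the motif in capitals. RefSeq and GENCODE starts differ, and the stretches of JUN, ASNS, CHAC1 and PLAUR lie inside the GENCODE spans of those genes. In each of these genes both knockdown libraries lay on the same side of the control. TGATGNAA, the composite element of ATF4 and CEBP, is held by 3.14% of 35116 promoters, TGACNTCA by 6.87% and TGANTCA by 6.57%, and no base of one printed motif belongs to another. Where a label says reverse, the capitals are the reverse complement of the motif. A match is a description of the letters, not of a bound site.
ASNS (chr7:97872429-97872516, minus strand, TGATGNAA): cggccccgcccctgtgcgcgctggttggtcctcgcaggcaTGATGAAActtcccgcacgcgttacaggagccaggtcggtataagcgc
CHAC1 (chr15:40953222-40953309, plus strand, reverse of TGATGNAA): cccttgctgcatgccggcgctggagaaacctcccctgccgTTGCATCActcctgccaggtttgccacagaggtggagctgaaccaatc
AARS (chr16:70289646-70289733, minus strand, reverse of TGATGNAA): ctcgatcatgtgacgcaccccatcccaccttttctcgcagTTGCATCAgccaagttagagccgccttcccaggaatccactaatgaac
JUN (chr1:58784067-58784154, minus strand, TGACNTCA): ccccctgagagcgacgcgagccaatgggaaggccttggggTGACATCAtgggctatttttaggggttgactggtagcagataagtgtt
PLAUR (chr19:43670309-43670395, minus strand, TGANTCA): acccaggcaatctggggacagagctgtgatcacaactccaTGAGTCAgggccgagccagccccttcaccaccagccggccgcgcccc
CXCL8 (chr4:73740392-73740478, plus strand, TGANTCA): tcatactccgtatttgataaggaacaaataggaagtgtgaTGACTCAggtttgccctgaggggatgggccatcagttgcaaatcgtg

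Among transcription factors of the immediate early class, JUN stood apart from its relatives. JUN, a subunit of AP-1 (ENSG00000177606, chr1:58780788-58784327; 1 transcript), was at 7.90, 272 and 265 CPM. It rose by 5.09 ± 0.09 on the log2 scale (SE; 2 knockdown libraries against 1 control; p over all genes 0.00695). The other AP-1 genes did not pass: FOSL2 was at 154, 220 and 218 CPM, FOSL1 at 191, 253 and 209.5 CPM, and JUNB at 40.6, 42.5 and 38.7 CPM. Of 19 immediate early genes at 5 CPM, 12 were above the control in both libraries and 4 below, and the median log2 value was 0.28 against 0.00 over all genes at that level. IER3, an early response gene, rose among stable genes (38.2, 107 and 101.1 CPM; p over stable genes 0.0174).

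The JUN change differed between lines. Over all genes, edgeR called the T24 change minus the UMUC3 change higher for 4 genes (0.0193%) and lower for 8 (0.0386%). In UMUC3, JUN was at 785, 1099 and 1086 CPM, so that the T24 change exceeded the UMUC3 change by 4.61 ± 0.11 (edgeR adjusted p 0.0185). LTBP2, a matrix protein that binds fibrillin, differed by 5.03, and AARS, the alanyl-tRNA synthetase, by -5.57 (adjusted p 0.021 and 0.0233). LTBP2 was low in UMUC3, at 3.14, 1.43 and 1.36 CPM, and its fall there is part of the difference. The difference between lines was tested with the main fit over all genes and under no other setting.

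Of 19 feedback genes of MAP kinase signalling at 5 CPM, 11 were above the control in both libraries and 8 below. The members that passed were lower. They were 1 of 22 over all genes, against 0.0434% of all genes tested, and 2 of 15 among stable genes, against 0.672% of all stable genes. DUSP1, a phosphatase that removes the activating phosphates of JNK and p38, fell from 194 to 53.3 and 50.9 CPM (log2 -1.90 ± 0.09, edgeR p over all genes 0.0316). ETV5, an ERK-responsive ETS factor, fell among stable genes (137, 63.1 and 67.9 CPM; p over stable genes 0.0401). SPRY2 and SPRY4, inhibitors of receptor signalling, were at 44.4, 74.4 and 77.9 CPM and at 63, 117 and 114 CPM and did not pass. Outside this list, ERRFI1, an inhibitor of the EGF receptor, rose from 128 to 388 and 402 CPM (log2 1.63 ± 0.08, p over all genes 0.0316). EGFR stood at 157, 342 and 328 CPM (p over all genes 0.158) with a composition shift of 0.26. Its ligands went both ways. EREG fell among stable genes (74, 37.4 and 35.9 CPM; p over stable genes 0.048). AREG stood higher, at 2.12, 7.72 and 8.94 CPM, and did not pass (edgeR p over stable genes 0.0784). Of 25 genes of the receptor kinase list at 5 CPM, 17 were above the control in both libraries and 5 below, with a median of 0.30.

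Genes of the extracellular matrix stood mostly above the control. Of 17 basement membrane genes at 5 CPM, 13 were above the control in both libraries and 3 below, with a median log2 value of 0.44. COL4A1, a chain of type IV collagen (ENSG00000187498, chr13:110148963-110307233), rose from 341 to 1272 and 1151 CPM (log2 1.83 ± 0.11, edgeR p over all genes 0.043). Its partner chain COL4A2 stood at 939 CPM in the control and at 1854 and 1673 CPM, and rose among stable genes (p over stable genes 0.0472). LAMA3, a chain of the epithelial laminin, was among the lower ones, at 25.4, 18.1 and 16.8 CPM, and did not pass in either fit.

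Interstitial matrix genes showed the same pattern, with 9 of 13 above the control in both libraries, 1 below, and a median of 0.54. FBN1, which encodes fibrillin, rose from 237 to 622 and 626 CPM (log2 1.39 ± 0.09, edgeR p over all genes 0.0491). THBS1, the thrombospondin gene, was at 541, 2128 and 2206 CPM, and rose among stable genes (log2 2.00 ± 0.20, edgeR p over stable genes 0.0174, over all genes 0.089). Fibronectin (FN1) at 2013, 3911 and 4093 CPM and COL5A2 at 54.2, 136 and 118 CPM did not pass. TGFBI, at 10.6, 35.8 and 37.2 CPM, did not pass over all genes (edgeR p over all genes 0.0734). With a shift of 0.25 it was not in the stable fit.

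HAS2, which makes hyaluronan, an abundant sugar polymer of the matrix, was at 17.8, 246 and 251 CPM. This gene has a single transcript in the table (ENSG00000170961, chr8:121612116-121641390) and rose by 3.80 ± 0.14 (edgeR p over all genes 0.0316). LTBP2 was at 43.1, 627 and 629.6 CPM and rose by 3.87 ± 0.11 (p over all genes 0.0197). In LTBP2 1 transcript, ENST00000261978, went from 1075 to 24610 and 37256 counts, and another, ENST00000556690, held 12308 counts in knockdown 1 and 0 in the other 2 libraries. The sum over transcripts was alike in the 2 knockdown libraries although the transcripts were not.

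Of 16 TGF-beta ligands, receptors and binding proteins at 5 CPM, 14 were above the control in both libraries and 2 below, with a median log2 value of 0.49. TGFBR2, the type II receptor, rose from 437 to 1139 and 1138 CPM (log2 1.38 ± 0.07, edgeR p over all genes 0.0316). The ligand TGFB1 was at 295, 501 and 492 CPM and rose among stable genes (p over stable genes 0.0341). ACVR1B (15.9, 58.2 and 52.2 CPM) and TGFBR1 (20.8, 66.4 and 59.1 CPM) did not pass and had shifts of 0.77 and 0.36. Among the targets, ID3, a factor that blocks DNA binding by its partners, rose among stable genes (49.2, 119 and 118 CPM; p over stable genes 0.0274). Over the SMAD and BMP list as a whole, 9 of 20 genes were above and 9 below.

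Of 12 genes of urokinase, coagulation and protease-activated receptors at 5 CPM, 8 were above the control in both libraries and 4 below, with a median of 0.95. Among the 12 stable members, 6 rose and 1 fell, against 0.836% and 0.672% of all stable genes. Over all genes, 0 members passed. The list was chosen with earlier results of these data known, so these shares are a description and not a test of the list. F2RL1 and F2R, receptors that proteases cut to activate, were at 43.3, 194 and 207 CPM and at 279.9, 607 and 622 CPM (p over stable genes 0.0174 each). F3, tissue factor, was at 109.5, 248 and 251 CPM (p over stable genes 0.0206).

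TFPI, the inhibitor of tissue factor, rose from 55.3 to 123 and 137 CPM (p over stable genes 0.0263), while TFPI2 fell from 103 to 41 and 43.2 CPM (p over stable genes 0.0313). PLAUR, the urokinase receptor, was at 63.4, 117 and 126 CPM and rose among stable genes (edgeR p over stable genes 0.0341). Urokinase itself, PLAU, was at 78.5, 74.5 and 69.7 CPM. The TGANTCA motif stood before 5 of the 11 genes of this list matched to a RefSeq promoter (45.5%), against 6.57% of all promoters. These were PLAUR and F3, which rose, TFPI2, which fell, and SERPINB2 and F2RL2, which did not pass. TGANTCA stood before 0 of the 18 immediate early genes matched. It stood before 3 of 18 in the matrix protease list (16.7%) and 3 of 27 in the amino acid list (11.1%). TGACNTCA stood before 5 of the 18 immediate early genes (27.8%), against 6.87% of all promoters. Whether a motif goes with the changes in these lists was not tested.

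Of 23 stable members of the matrix protease list, 5 rose, against 0.836% of all stable genes. Over all genes, 0 members passed. This list too was chosen with earlier results of these data known, so its shares are a description. Before adjustment, at p under 0.05, 12 of 28 members were higher and 2 lower, against 1368 and 1230 of the 20721 genes tested. The collagenase MMP1 was at 0.774, 12.2 and 15.2 CPM, MMP13 at 1.5, 12.3 and 11.6 CPM, and MMP10 at 0.337, 7.27 and 6.75 CPM, with p over stable genes of 0.0401, 0.048 and 0.048. The membrane-anchored MMP16 rose from 56.5 to 144 and 159 CPM, and the sheddase ADAM19 from 181 to 351 and 354 CPM. MMP2, the gelatinase, was at 10.5, 22.6 and 23.0 CPM and did not pass (p over stable genes 0.0695). TIMP3, an inhibitor of these enzymes, was at 393, 281 and 281 CPM without passing.

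**Figure D2:**
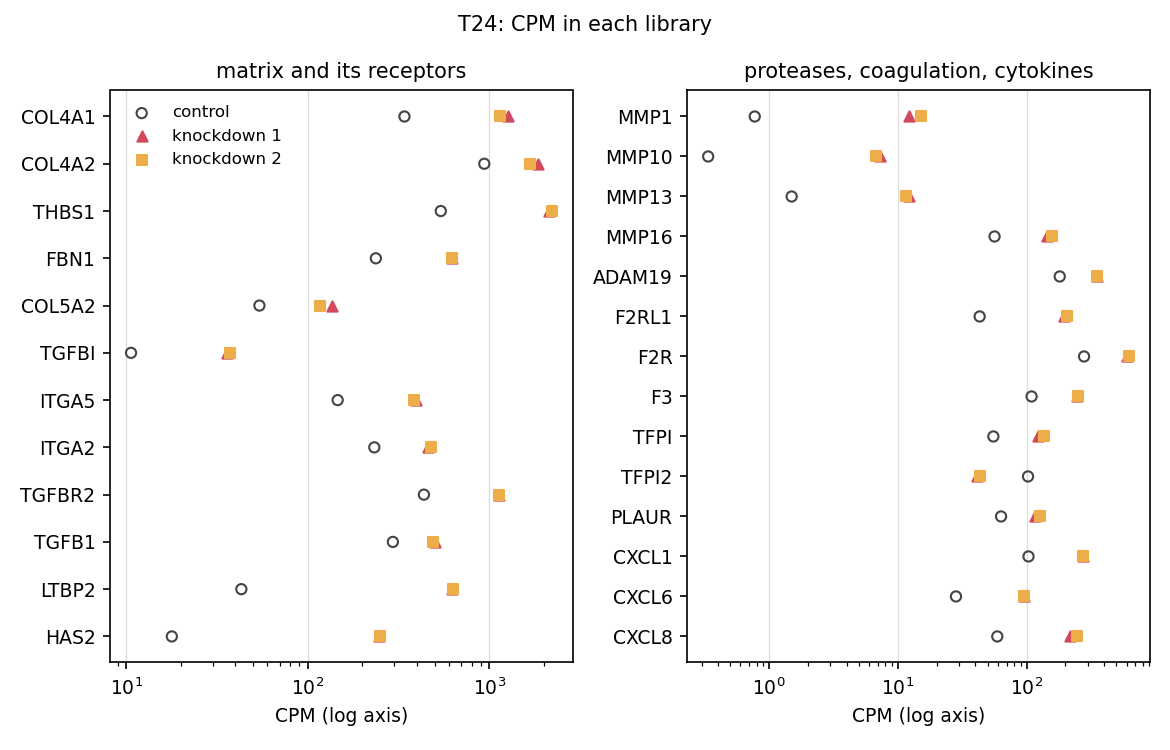
CPM (log axis) of matrix, receptor, protease, coagulation and chemokine genes in the control (circle), knockdown 1 (triangle) and knockdown 2 (square). TFPI2 is the only gene drawn whose knockdown libraries (41 and 43.2 CPM) lie below the control (103 CPM).

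Integrins, the receptors for matrix, leaned upward too. Of 25 integrin and focal adhesion genes at 5 CPM, 17 were above the control in both libraries and 5 below, with a median of 0.29. ITGA5, the fibronectin receptor subunit, was at 146, 397 and 386 CPM (log2 1.42 ± 0.10, edgeR p over stable genes 0.0151), and ITGA2, a collagen receptor subunit, at 233, 458 and 476 CPM (p over stable genes 0.0408). ITGB4, the laminin receptor subunit of hemidesmosomes, was lower at 68.7, 28.5 and 23.8 CPM and did not pass.

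Of the chemokines that draw neutrophils, CXCL8, CXCL6 and CXCL1 rose among stable genes. CXCL8 was at 59.3, 218 and 245 CPM, CXCL6 at 28.3, 95.3 and 95 CPM and CXCL1 at 104, 273 and 273 CPM (edgeR p over stable genes 0.0249, 0.0174 and 0.0151). Each is a ligand of the chemokine receptors CXCR1 or CXCR2. Over the 11 chemokine and cytokine genes at 5 CPM, 7 were above the control in both libraries and 4 below, the median was 0.44, and IL11 at 22.3, 11.9 and 11.8 CPM was among the lower ones. Of NF-kappaB genes, 10 of 22 were above and 8 below.

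Mesenchymal genes gave no single direction. Of the 8 measured at 5 CPM, 4 were above the control in both libraries and 4 below. Of the 3 composition-stable ones, 3 were above and 0 below, with a median of 0.77. CDH2, N-cadherin, rose among stable genes (188, 314 and 325 CPM; edgeR p over stable genes 0.0401, over all genes 0.109). VIM was at 131, 197 and 202 CPM (p over all genes 0.0808) and, with a shift of 0.67, was not in the stable fit. ZEB1, a repressor of E-cadherin, was at 41, 9.72 and 37.8 CPM and did not pass, and SNAI2 was at 16.9, 35.4 and 35.4 CPM (p over all genes 0.244). Of 14 epithelial and urothelial genes at 5 CPM, 7 were above and 6 below. Of the 7 composition-stable ones, 2 were above and 5 below, with a median of -0.07. KRT18, a simple epithelial keratin, fell from 836 to 425 and 390 CPM (p over stable genes 0.0295), and KRT8 was at 1692, 1559 and 1482 CPM. KRT7, another simple epithelial keratin and the doubled member of this list, was at 171, 480 and 708 CPM and did not pass (edgeR p over all genes 0.439, composition shift 0.71).

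Targets of YAP and TEAD, which read cell tension and density, fell in part. CYR61 was at 727, 381 and 388 CPM and CTGF at 884, 447 and 472 CPM, and both fell among stable genes (edgeR p over stable genes 0.0174 and 0.0472). ANKRD1 was at 44.3, 23.1 and 20.8 CPM and did not pass. AMOTL1, an angiomotin, stood at 67.1, 194 and 199.7 CPM (p over all genes 0.0704, shift 0.37). Over the 19 YAP genes at 5 CPM, 9 were above the control and 7 below, with a median of -0.11. The cytoskeletal list as a whole had 15 of 32 above and 11 below, and non-muscle myosin MYH9 fell among stable genes (4570, 3402 and 3309 CPM; p over stable genes 0.0401).

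Genes of amino acid supply, many of them targets of the transcription factor ATF4, had a median log2 value of -0.36. Over composition-stable members alone it was -0.28, against -0.36 for the DNA replication and -0.40 for the cholesterol synthesis list. Of 31 at 5 CPM, 22 were below the control in both libraries and 8 above. SLC7A5, the light chain of the large neutral amino acid transporter, fell from 1568 to 741 and 735 CPM (log2 -1.09 ± 0.07, edgeR p over all genes 0.0491). ASNS, asparagine synthetase, fell from 33 to 8.09 and 7.79 CPM (log2 -2.05 ± 0.13, p over all genes 0.0491) with a composition shift of 0.33. SLC7A1, the cationic amino acid transporter, fell among stable genes (189, 54.1 and 61.3 CPM; p over stable genes 0.0133).

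Further members stood lower without passing over all genes. CHAC1, which degrades glutathione, was at 15.3, 3.80 and 3.47 CPM. PSAT1 of serine synthesis was at 134, 76.3 and 80.6 CPM, MTHFD2 of mitochondrial folate metabolism at 58.5, 36.9 and 32.9 CPM, and the cystine transporter SLC7A11 at 105, 60.6 and 53.8 CPM. ATF4 itself was at 476, 386 and 372 CPM. Among the 8 members above the control in both libraries were CBS at 12.6, 27.8 and 28.7 CPM and STC2 at 205, 332 and 298 CPM. The ATF4 composite of the promoters above was found before 2 of the 27 list genes matched (7.41%), ASNS and CHAC1.

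Of the cytosolic tRNA synthetases, 13 of 23 were below the control in both libraries and 2 above, with a median of -0.08, and AARS was the member that changed. AARS (ENSG00000090861, chr16:70252295-70289543) was at 129.9, 27.5 and 27.5 CPM and fell by 2.24 on the log2 scale (SE 0.12, edgeR p over all genes 0.0316). Its main transcript ENST00000261772 went from 7466 counts to 1403 and 1455. In UMUC3, AARS was at 24.2, 257 and 230.3 CPM, the other direction. Endoplasmic reticulum chaperones, which fold secreted proteins, stood the other way round from the amino acid genes: 18 of 27 were above the control in both libraries and 4 below, with a median of 0.19, and HYOU1 rose among stable genes (278, 413 and 420.5 CPM; p over stable genes 0.0497).

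The G1 kinase CDK4 fell. CDK4 (ENSG00000135446, chr12:57747727-57756013) was at 142, 29.2 and 28.4 CPM, a fall of 2.31 on the log2 scale (SE 0.10, edgeR p over all genes 0.0316). The drop was seen in its main transcript, ENST00000257904, with 6301 counts in the control and 1579 and 1361 after knockdown, and ENST00000312990 went from 495 to 0 and 0. Of 25 G1 cyclins, kinases and inhibitors at 5 CPM, 15 were below the control in both libraries and 7 above. CDKN1B, the kinase inhibitor p27, was at 76.1, 111 and 113 CPM and CDK6 at 128, 193 and 199 CPM, and neither passed.

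DNA replication genes stood mostly lower: 30 of 41 were below the control in both libraries and 5 above, with a median of -0.31. MCM2 (266, 134 and 146 CPM) and MCM6 (124, 79.2 and 77.4 CPM), subunits of the helicase loaded on origins, and CDC6 (118, 65.4 and 68.2 CPM), which loads it, fell among stable genes (edgeR p over stable genes 0.0307, 0.0493 and 0.0438). PCNA, the polymerase clamp, was at 509, 361 and 365 CPM and FEN1 at 236, 168 and 167 CPM, and neither passed. POLD1, at 17.2, 61.5 and 87.8 CPM, and UHRF1, at 61.5, 138 and 187 CPM, were the 2 doubled members, with shifts of 0.58 and 0.28. Mitosis genes showed no such lean, with 14 of 40 above, 15 below and a median of 0.03.

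Of the DNA repair genes, 20 of 30 were below the control in both libraries and 4 above, with a median of -0.27. WRN, a helicase of the RecQ family, fell among stable genes (16.8, 1.88 and 3.20 CPM; p over stable genes 0.0305), and CHEK1, the replication checkpoint kinase, was at 46.3, 8.02 and 13.2 CPM with a shift of 0.57. Gemcitabine, a cytidine analog, is activated by DCK, and ribonucleotide reductase is among its targets. RRM2B, a reductase subunit, fell among stable genes (45.6, 11.4 and 13.1 CPM; p over stable genes 0.0174). RRM2 was at 207, 282 and 314 CPM, RRM1 at 423, 354 and 392 CPM and DCK at 79.1, 65.5 and 66.2 CPM, and none of the 3 passed. The uptake transporter SLC29A1 was at 86.3, 45.2 and 56.6 CPM and did not pass.

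Genes of cell death gave a few upward values. BMF, a pro-apoptotic BH3-only protein, rose among stable genes (4.19, 29.6 and 31.8 CPM; log2 2.87 ± 0.33, edgeR p over stable genes 0.0249). Its relative BCL2L11 was at 5.02, 21 and 17.2 CPM with a shift of 0.93, and the death receptor TNFRSF10A rose among stable genes (25.9, 48.1 and 49.3 CPM; p over stable genes 0.0473). Over the list, 11 of 27 were above and 6 below.

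Sterol synthesis genes leaned downward, with 20 of 28 below the control in both libraries, 5 above and a median of -0.30, and 0 passed edgeR in either fit. Before adjustment, at edgeR p under 0.05, 9 of 28 were lower and 0 higher, against 1230 and 1368 of the 20721 genes tested. DESeq2 called 1 of 28 lower, against 380 of the 20721. Limma-voom called 0 of all genes tested, so its 0 here tells nothing about this list. SCD, the desaturase that makes oleate, fell among stable genes (1074, 569 and 563 CPM; log2 -0.92 ± 0.06, p over stable genes 0.0152).

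HMOX1, which degrades heme, rose from 25.2 to 124 and 127 CPM (log2 2.31 ± 0.11, edgeR p over all genes 0.0316). The iron storage genes FTH1 (904, 1443 and 1526 CPM) and FTL (623, 909 and 947 CPM) and the glutathione synthesis gene GCLM (75.9, 138 and 139 CPM) rose among stable genes (p over stable genes 0.0274, 0.0301 and 0.0294). The NRF2, heme and iron list as a whole had 11 of 27 above, 8 below and a median of -0.02. AKR1C1, a reductase, was at 8.76, 4.47 and 3.05 CPM without passing.

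**Figure D3:**
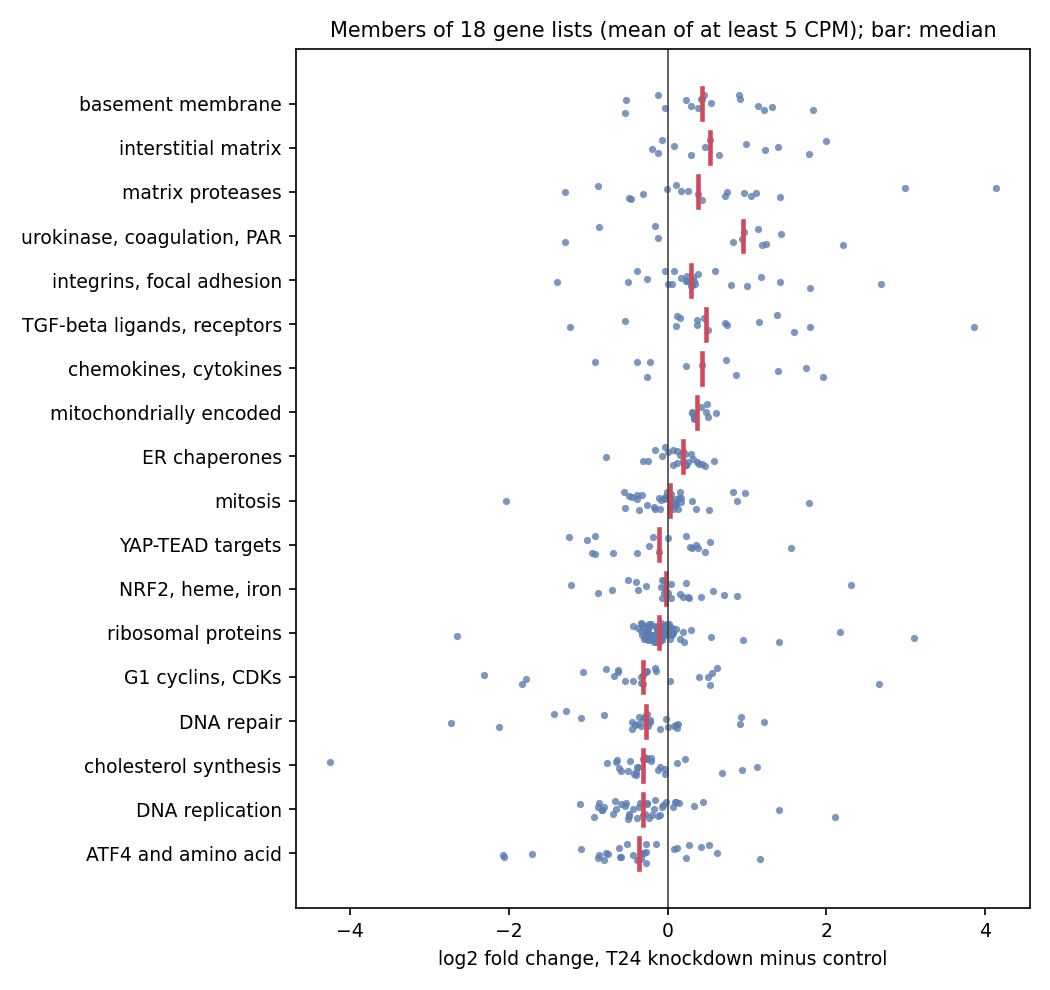
Log2 fold change of each member with a mean of at least 5 CPM in 18 gene lists (dots), with the median of the list (bar) and the median of all genes (vertical line, 0.00). Basement membrane (0.44), interstitial matrix (0.54) and urokinase (0.95) medians lie to the right and amino acid (-0.36) and DNA replication (-0.31) medians to the left.

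All 10 mitochondrially encoded genes tested were above the control in both libraries, with a median of 0.38. MT-ND5 rose among stable genes (1678.5, 2341 and 2415 CPM; p over stable genes 0.0491), and MT-CO1 was at 10628, 12955 and 13766 CPM. This share of counts is a sign of RNA quality as well as of mitochondria, and its part in the other results was not tested. Nuclear genes of oxidative phosphorylation had 8 of 38 above and 21 below, with a median of -0.05. Ribosomal protein genes had 53 of 78 below and 12 above, with a median of -0.11, a small shift.

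**Figure D4:**
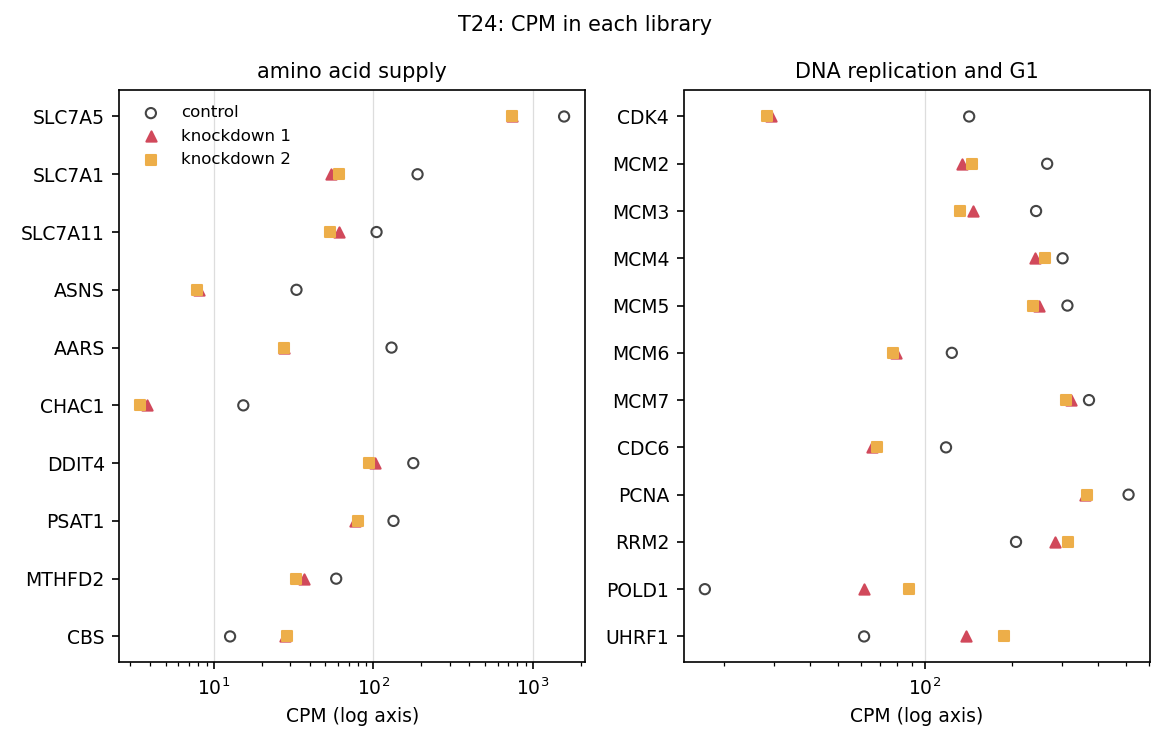
CPM (log axis) of amino acid supply genes (left) and of G1 and DNA replication genes (right) in the control (circle), knockdown 1 (triangle) and knockdown 2 (square). CBS, POLD1, UHRF1 and RRM2 lie above the control, and CDK4 falls from 142 to 29.2 and 28.4 CPM.

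Other calls in T24 were spread over functions. EIF4H, a cofactor of the translation helicase, fell from 689.9 to 172 and 151 CPM (log2 -2.09 ± 0.11, edgeR p over all genes 0.0316). WSB2, a substrate adaptor of a ubiquitin ligase, fell from 95.2 to 25.6 and 26.0 CPM (p over all genes 0.0428). ZNF292, a zinc finger protein, rose from 8.08 to 84.4 and 90.0 CPM, and SAMD1 from 9.02 to 63.4 and 57.1 CPM (p over all genes 0.0316 and 0.0437). The noncoding gene AC087190.3, a single transcript, rose from 0.825 to 104 and 129 CPM (p over all genes 0.0316). RPL37 went from 275 to 41.3 and 46.3 CPM (p over all genes 0.0316), a ribosomal protein gene with processed copies elsewhere in the genome, so its value is uncertain.

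Among stable genes with the largest differences, FGFBP1, a carrier of fibroblast growth factors with a single transcript, fell from 55.3 to 1.88 and 1.87 CPM (log2 -4.88 ± 0.24, p over stable genes 0.0133). NNMT, which methylates nicotinamide, fell from 54.0 to 11.3 and 9.64 CPM and HIGD1A, a mitochondrial protein, from 123 to 18.3 and 21.9 CPM (p over stable genes 0.0174 each). RAB31, a GTPase of vesicle traffic, rose from 6.75 to 67.9 and 67.4 CPM (p over stable genes 0.0174). The semaphorin SEMA3A rose from 62.2 to 156 and 174 CPM (p over stable genes 0.0249). CBX5, a reader of methylated H3K9, fell from 374 to 181 and 179 CPM (p over stable genes 0.0365), and the heterochromatin list as a whole had 11 of 25 above and 8 below.

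Several of the largest calls rested on a transcript with 0 counts in the control. SCAF1 was at 0.556, 198 and 156 CPM, and its transcript ENST00000360565 had 0 counts in the control and 11693 and 9250 after knockdown. LSM12 behaved alike, with 0, 3433 and 3633 counts of ENST00000293406, and FMNL3 with 0, 1981 and 1954 counts of ENST00000335154. Their other transcripts held few counts in the control, such as 126 of ENST00000585388 in LSM12 (125 and 162 after knockdown). The shifts of these 3 genes, 0.96 to 0.999, therefore set the shares of a small control count against those after knockdown. HMGA2, EPS15, NDE1, TUBB2B, SET and SEMA7A had shifts from 0.28 to 0.73, and the level of each of these genes is uncertain. SET was at 824, 313 and 309.9 CPM, with ENST00000322030 at 47833, 17874 and 4615 counts and ENST00000372692 at 592, 329 and 13494.

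LMNA, the gene of lamins A and C, had sums that were alike in both knockdown libraries and transcripts that were not. Its total was at 603, 1283 and 1191 CPM (log2 1.04 ± 0.08, edgeR p over all genes 0.0687), while the leading transcript was a different one in each library: ENST00000347559 with 30025 counts in the control, ENST00000368300 with 74039 in knockdown 1 and ENST00000368299 with 64695 in knockdown 2. HSPA1A and HSPA1B, near-identical heat shock genes, were at 0.219 and 0.0505 CPM in the control, at 243 and 258 CPM in knockdown 1 and at 38.6 and 60.9 CPM in knockdown 2, and neither passed. CENPQ was listed at 0 in the control and at 9.18 and 7.27 CPM, and FP236383.3 at 0.253, 23.6 and 732 CPM, far apart in the 2 knockdown libraries.

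**Figure D5:**
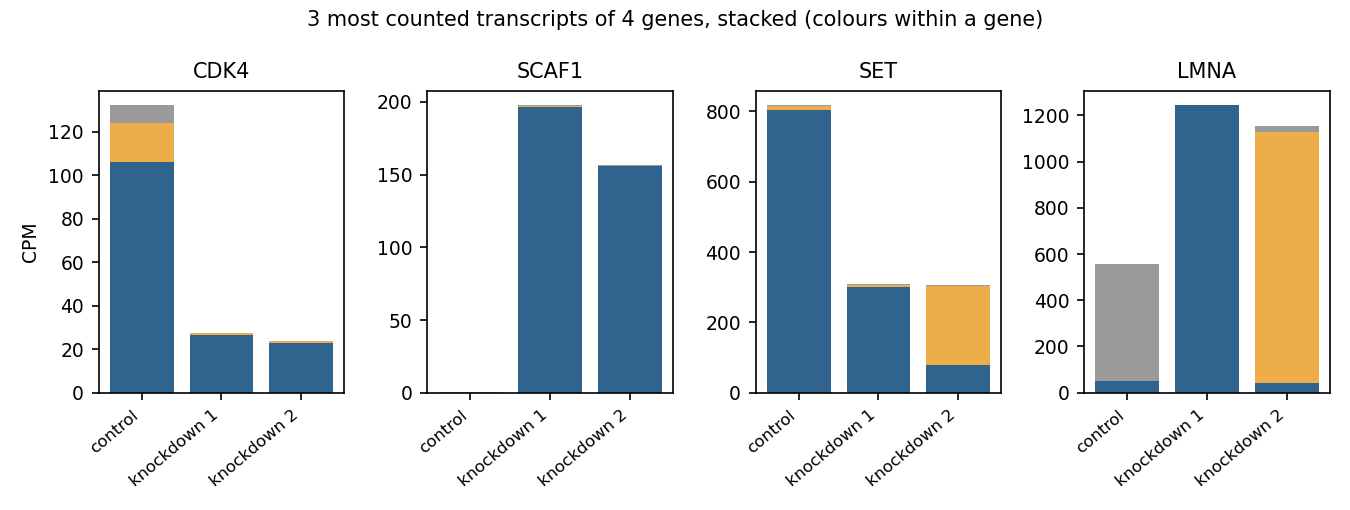
CPM of the 3 most counted transcripts of CDK4, SCAF1, SET and LMNA in T24, stacked, with the most counted over the 3 libraries in blue, the next in orange and the next in grey. The main transcript of CDK4 goes from 106.1 CPM to 26.6 and 22.9 CPM, while LMNA has a different leading transcript in each library.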

How the data were processed

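RNA-seq of total RNA from T24 and UMUC3 cells was deposited as raw read counts per transcript, per the file headers, with no normalisation by the authors. The submitters' processing notes name FastQC 0.11.5, HISAT2 2.1.0, StringTie 1.3.3b and hg38, with no role or order. Strand and poly(A) selection are not given in the sources used here, so overlapping, antisense and near-identical genes cannot be told apart. Rows without a gene (15038 of 136953 transcripts, 14.9% to 16.1% of T24 counts) were left out, and the rest summed to 30717 genes. Coordinates are from GENCODE 29.

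Genes needed a total count of 30, and a count of 10 in 2 or more libraries, to be fitted in edgeR 4.0.16 (R 4.3.3; TMM; robust quasi-likelihood fit with the current method, legacy=FALSE) as 4 groups over all 6 libraries (2 residual degrees of freedom). The method was not named in the planned design. Both were run, and the one that matched earlier processing of these data was kept, with both outcomes known. The script was tested on simulated data. Fold rules used a pseudocount of 0.1 CPM. DESeq2 1.42.0 and limma 3.58.1 served as alternatives. Medians and above/below counts of lists use members with a mean of at least 5 CPM.

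Members and the 54 gene lists were chosen with earlier results of these data known. Named genes are PTK2, PABPC1 and SETDB1, the calls, the composition-stable genes and the list members that differed most. Other genes were picked as examples after their values were seen. Some genes that the rule names are not reported here.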

Additional observations from a re-analysis of the deposited data

Results flagged for a closer look

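The T24 change differed from the UMUC3 change, by edgeR's test of the difference itself, for 6 genes named here. The difference was 4.61 on the log2 scale for JUN, 5.03 for LTBP2, 7.97 for SCAF1, -5.57 for AARS, -2.32 for NDRG1 and -1.47 for MYH9. SCAF1, NDRG1 and MYH9 were near the threshold (edgeR adjusted p 0.0487 each). The SCAF1 value rests on a transcript, ENST00000360565, with 0 counts in the lone T24 control, so it is uncertain. NDRG1, a hypoxia-responsive gene, was at 34.6, 74.9 and 76.0 CPM in T24 and rose among composition-stable genes (edgeR adjusted p 0.0174), and at 76.2, 847 and 809 CPM in UMUC3.

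Transcripts that carry no gene name were left out of every comparison. Of 5311 of them with a mean of at least 5 CPM in T24, 676 were at least doubled in both knockdown libraries and 486 at least halved, and the knockdown libraries were at least 2-fold apart for 2195 (41.3%). Of 17739 named transcripts at that level, 1565 were doubled, 1224 halved and 4802 (27.1%) were 2-fold apart.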

How the results depend on the processing

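With 1 control library and 2 residual degrees of freedom, the number of edgeR calls depended on the setting, and the cause was not tested. Against 19 higher and 9 lower genes, DESeq2 called 583 and 380, no filter on low counts 29 and 14, composition-stable genes alone 107 and 86, and edgeR's older quasi-likelihood method, added after seeing the data, 2 and 0. Limma-voom and T24 libraries alone called 0 and 0 (2849 and 2422 genes at an unadjusted p under 0.05). Leaving out 1 knockdown library of either line called 0 and 0 (1971 to 2454 genes at an unadjusted p under 0.05), and without the UMUC3 control 18 and 7. These fits ranged from 0 to 18 genes higher and from 0 to 7 lower. Among composition-stable genes, fits without 1 T24 knockdown library, added after seeing the data, called 1 and 0. DESeq2 size factors, library size alone and unnamed transcripts in library sizes gave 17 to 19 higher and 9 lower.

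The knockdown libraries of both lines share the numbers 1 and 2, with nothing to say that a number pairs samples, and the deviations of same-numbered libraries had a correlation of 0.006 across 11110 genes. With a replicate block by that number (of the titles, or of the columns) edgeR called 0 higher and 0 lower (2174 and 1802 genes at an unadjusted p under 0.05).

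The 375 doubled and 261 halved genes became 239 and 142 at a mean of at least 20 CPM, 150 and 121 among composition-stable genes, and 161 and 89 at 3-fold. At a mean of at least 1 CPM 410 genes were halved. Judged on 1 knockdown library, 587 to 591 were doubled and 559 to 590 halved. Other normalisations and a pseudocount of 1 CPM gave 339 to 380 and 235 to 290.

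Over 140 genes named, the log2 value was recomputed under 7 settings (980 values). Its sign changed in 5, all for genes not called, and 0 called genes reversed. Among the 28 calls, 114 values over the 7 settings lost the threshold, and 78 values of other genes gained it, all 78 with DESeq2. SETDB1 was at -0.36 without knockdown 1. The lone control sets the direction of every value here, and no setting tests it.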
